A study of Mus musculus with 2 samples.

Results

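The genes described here are 8 receptors and 2 partner proteins of Toll-like receptor (TLR) sensing, chosen by symbol from the deposited gene table: Tlr1, Tlr2, Tlr4, Tlr6, Tlr7, Tlr9, Tlr13, Cd180, Myd88 and Unc93b1. All 10 were found among the 14774 genes of the table. The RNA came from C57BL/6 mouse spleen cells selected as CD4+CD25+, which the labels call regulatory T cells (Tregs), after 5 days of co-culture with SVEC4-10, a mouse endothelial cell line transformed with SV40. The endothelial partner had been given a control oligonucleotide in 1 culture and small interfering RNA against Capns1, the small subunit of the calpain proteases, in the other. The interfering RNA went to the endothelial line and not to the sequenced cell type, and there was 1 library for each culture. They are called the control and the knockdown library here, and the column names Cont and Si were matched to them by meaning, so every direction below rests on that match.

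Toll-like receptors recognise microbial molecules through a leucine-rich ectodomain and signal through a cytoplasmic TIR domain, which recruits the adaptor Myd88 and leads to NF-kB and interferon regulatory factor activation. Tlr1, Tlr2, Tlr4 and Tlr6 sit at the cell surface and bind bacterial lipoproteins or lipopolysaccharide, while Tlr7, Tlr9 and Tlr13 sense nucleic acids in endosomes, where the transmembrane protein Unc93b1 carries them. Cd180 resembles Tlr4 outside the cell but lacks a TIR domain. In the spleen these genes are known chiefly from macrophages, dendritic cells and B cells, and less from T cells.

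The 2 libraries held 47724379 and 46938963 reads in genes, control first, and 3 reads corresponded to 0.0626 and 0.0642 CPM (reads per 1000000 reads). With 1 library per group there is no replicate check, no dispersion can be estimated and no p-value is given. Each fold is the knockdown CPM over the control CPM, with an exact 95% Clopper-Pearson interval that compares these libraries and covers counting error only. Amplified reads are not independent molecules, so the true error can be wider than these intervals. The spread between replicate cultures is unknown, and no difference below could be set against it. Markers did not single out Tregs: Foxp3, the Treg transcription factor, had 250 and 221 reads and the CD25 gene Il2ra 282 and 264, while 15 B cell markers summed to 172169 and 150174 reads. The 10 markers of matrix-producing cells summed to 134272 and 125510 reads. Whether RNA of the endothelial partner was in these libraries was not tested. Capns1 itself had 11650 and 11015 reads in these libraries, a fold of 0.969 (0.944 to 0.994), which does not check the knockdown in the endothelial partner. Cd4 had 394 and 292 reads and the T cell receptor chain Cd3e 1069 and 993.

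Tlr1 and Tlr6 are neighbouring paralogs whose reads can be hard to tell apart, so their sequences are shown before their values. Their coding sequences were 75.6% identical over 2361 aligned bases in the GENCODE M21 transcripts. Split into 3 equal parts from the 5′ end, identity was 60.0%, 73.1% and 92.5%. The longest stretch without a difference was 229 bases. The 300 coding bases below begin within that stretch, 100 bases before its end, and capitals mark the 2 positions at which the genes differ. On GRCm38, minus strand, the Tlr1 stretch is chr5:64925337-64925636 and the Tlr6 stretch chr5:64953628-64953927.
Tlr1: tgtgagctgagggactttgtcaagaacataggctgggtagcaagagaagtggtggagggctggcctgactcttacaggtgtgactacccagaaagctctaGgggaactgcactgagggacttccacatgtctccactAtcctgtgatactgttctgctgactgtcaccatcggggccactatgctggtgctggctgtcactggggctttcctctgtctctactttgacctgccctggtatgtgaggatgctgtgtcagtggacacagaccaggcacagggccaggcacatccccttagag
Tlr6: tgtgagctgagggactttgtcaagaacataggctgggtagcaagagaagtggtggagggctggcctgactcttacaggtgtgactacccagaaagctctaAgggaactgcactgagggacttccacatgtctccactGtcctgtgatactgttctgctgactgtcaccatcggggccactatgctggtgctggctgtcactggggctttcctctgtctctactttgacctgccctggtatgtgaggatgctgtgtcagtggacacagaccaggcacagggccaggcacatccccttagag
Of the 50-base windows of the Tlr1 transcript, 15.3% occurred in Tlr6, and 12.6% of those of Tlr6 occurred in another gene, nearly all in Tlr1. With 100-base windows the shares were 8.85% and 7.24%. The read length and the rule for reads that map to more than 1 place are not given in the sources used here, and the split of reads between the pair is uncertain. Myd88 shared 9.16% of its 50-base windows, on either strand, with the neighbouring Acaa1a, and the other 7 genes shared none with any other gene of that annotation.

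Of the 8 receptors, 7 stood lower in the knockdown library. Tlr1, Tlr2, Tlr4, Tlr7, Tlr9 and Cd180 had folds from 0.803 to 0.840, Tlr13 was lowest at 0.715, and Tlr6 at 1.12 was the exception. Unc93b1 was nearly level at 0.945 and Myd88 slightly higher at 1.07. None of the 10 was called at a fold of at least 2 or at most 0.5 with an interval excluding 1, a rule that 0.135% of all genes passed as lower and 0.00677% as higher. At 1.5-fold the count was also 0 of 10 in either direction, against 1.22% of genes lower and 0.291% higher. The intervals of 8 of the 10 lay below 1 and that of 1 above, where 22.7% and 24.2% of all genes did so. Of the 10284 genes with control reads in the range of these 10, 23.5% had an interval below 1. The 10 genes were chosen with earlier results of these data known, so these shares describe them and test nothing. The median log2 fold of the 10 genes was -0.26, and that of all genes was 0.00 with an SD of 0.20 over genes. In bulk RNA, fewer cells of a type and less RNA per cell cannot be told apart.

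**Figure D1:**
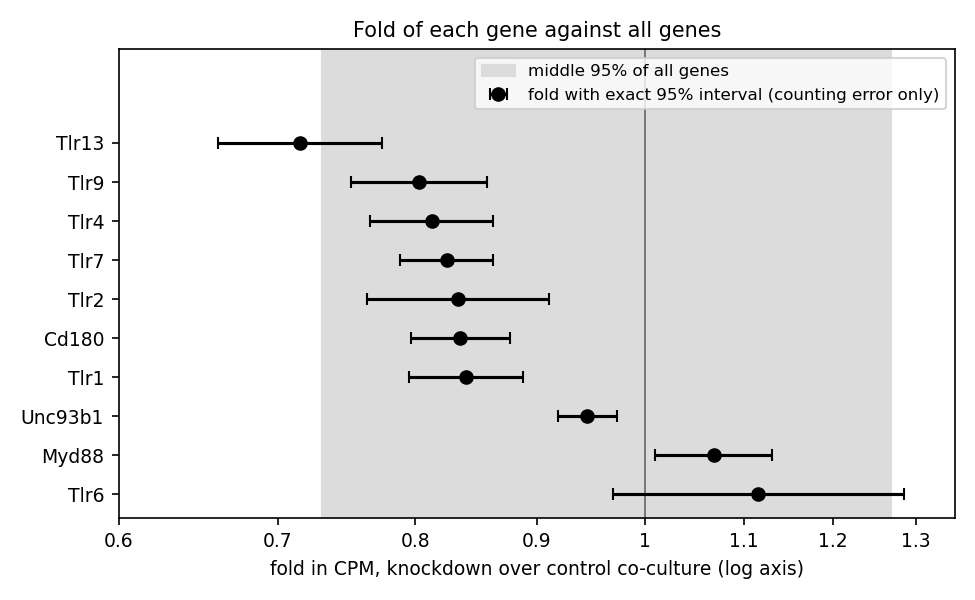
Fold of each gene in CPM, knockdown over control library, on a log axis. Points are folds, bars exact 95% intervals from counting error, and the grey band the middle 95% of all 14774 genes. Tlr13 lies left of the band at 0.715, 6 receptors lie together between 0.803 and 0.840, and Tlr6 and Myd88 lie above 1.

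Among the surface receptors, Tlr2 pairs with Tlr1 to bind triacylated lipopeptides and with Tlr6 to bind diacylated ones. Tlr2 (NCBI Gene 24088) had 1129 control and 919 knockdown reads, a fold of 0.834 (95% interval 0.764 to 0.911). Tlr1 (Gene 21897) had 2839 and 2328 reads, a fold of 0.840 (0.795 to 0.888). Both were lower in the knockdown library and their intervals overlapped over most of their width. Tlr6 (Gene 21899), the least abundant of the 10, had 383 and 417 reads, a fold of 1.12 (0.969 to 1.285), and its interval included 1. The ratio of Tlr1 to Tlr2 reads was 2.51 and 2.53 in the control and knockdown libraries, a change of 1.01 (0.908 to 1.12). That of Tlr6 to Tlr2 was 0.339 and 0.454, a change of 1.34 (1.13 to 1.58). Relative to Tlr2, Tlr6 therefore stood higher in the knockdown library while Tlr1 held its place. Summed, Tlr1 and Tlr6 had 3222 and 2745 reads and a fold of 0.873 (0.829 to 0.919). The sum does not depend on how shared reads were split between the paralogs, unless such reads were dropped or counted for both. The Tlr6 gene also overlaps Fam114a1 in RefSeq, but no 50-base window of the GENCODE M21 Tlr6 transcript occurred in Fam114a1. Fam114a1 had 1026 and 1046 reads and a fold of 1.04 (0.958 to 1.14), and its part in the Tlr6 value was not tested.

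Tlr4, the receptor for lipopolysaccharide, had 2476 and 1964 reads (Gene 21898), a fold of 0.813 (0.766 to 0.863). Its co-receptor gene Cd14 stood at 0.916 (0.840 to 0.999) with 1114 and 996 reads. Ly96, the small protein that holds the lipid part of lipopolysaccharide beside Tlr4, went the other way, with 128 and 163 reads and a fold of 1.305 (1.03 to 1.66). Ly96 had few reads in both libraries, but its transcript is short, with 632 bases beside 4077 for Tlr4. Per kilobase of transcript, scaled as CPM, Ly96 stood at 4.23 and 5.52, control first, and Tlr4 at 12.7 and 10.3. The ratio of Tlr4 to Ly96 reads moved from 19.3 to 12.05, a change of 0.623 (0.487 to 0.796). Cd180 (Gene 17079), a regulator of lipopolysaccharide responses on B cells and macrophages, had 3762 and 3068 reads, a fold of 0.836 (0.796 to 0.877). Its obligate partner Ly86 had 2816 and 2334 reads and a fold of 0.849 (0.804 to 0.897). The ratio of Cd180 to Ly86 reads was 1.34 and 1.31, a change of 0.984 (0.914 to 1.06), so the pair stood lower to a similar degree. These partner ratios were chosen after the values were seen and are not corrected for length, so only their change between libraries is read.

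The endosomal receptors were all lower in the knockdown library. Tlr7 (Gene 170743), which senses single-stranded RNA, was the most read receptor, with 4326 and 3482 reads and a fold of 0.825 (0.789 to 0.863). Tlr9 (Gene 81897), which senses unmethylated CpG DNA, had 2044 and 1602 reads, a fold of 0.803 (0.752 to 0.858). Tlr13 (Gene 279572), which recognises bacterial ribosomal RNA and is lacking in humans, had 1511 and 1055 reads, a fold of 0.715 (0.661 to 0.774). Of all genes, 2.08% had a lower fold than Tlr13, against 5.76% for Tlr9, 6.44% for Tlr4 and 7.41% for Tlr7. The shares for Tlr2, Cd180 and Tlr1 were 8.30%, 8.47% and 9.04%. By location, the 3 endosomal receptors summed to 7881 and 6139 reads, a fold of 0.798 (0.772 to 0.825), and the 5 surface receptors to 10589 and 8696 reads, a fold of 0.841 (0.818 to 0.866). The 8 receptors together had 18470 and 14835 reads, a fold of 0.823 (0.805 to 0.841).

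Unc93b1 (Gene 54445), which escorts these receptors from the endoplasmic reticulum, was the most abundant of the 10, with 9782 and 9024 reads and a fold of 0.945 (0.919 to 0.973). Its receptors stood lower than it did: the ratio to Unc93b1 reads changed by 0.873 (0.827 to 0.920) for Tlr7, 0.850 (0.790 to 0.913) for Tlr9 and 0.757 (0.695 to 0.824) for Tlr13. Myd88 (Gene 17874), the adaptor that nearly all of these receptors use, had 2341 and 2441 reads, a fold of 1.07 (1.01 to 1.13). With upper-quartile scaling the Myd88 interval reached from 0.9995 to 1.12 and included 1. Acaa1a, the neighbour that shares windows with Myd88 and encodes a peroxisomal thiolase, stood at 1.17 (1.099 to 1.24) with 2117 and 2408 reads. Its part in the Myd88 value was not tested.

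**Figure D2:**
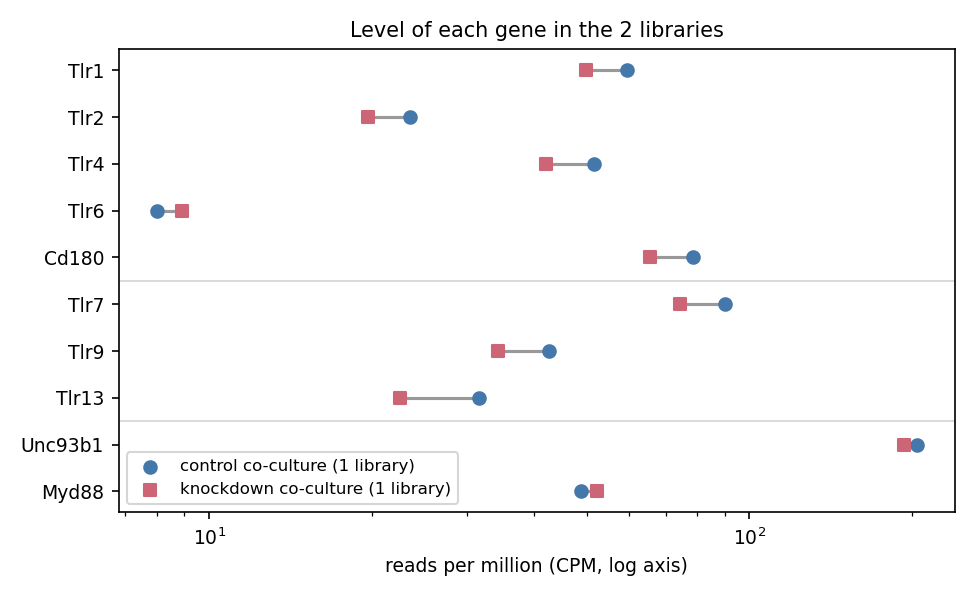
Level of each gene in CPM (log axis), with a circle for the control and a square for the knockdown library, 1 library each. From top to bottom the blocks are surface receptors, endosomal receptors, and Unc93b1 with Myd88. The square lies left of the circle for 8 genes and right of it for Tlr6 and Myd88.

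The folds of the 10 genes were also set against each other, as the ratio of 2 folds, which does not depend on how the libraries are scaled. Of 45 pairs, 29 had a 95% interval excluding 1, and 23 did so at the interval level adjusted over the 45 pairs (Bonferroni). Among Tlr1, Tlr2, Tlr4, Tlr7, Tlr9 and Cd180, grouped after their values were seen, 0 of 15 pairs differed at the unadjusted level. The interval reaching furthest above 1 was that of Tlr2 over Tlr9, 1.04 (0.930 to 1.16), so a gap of up to 1.16-fold between these is not excluded by their reads. Tlr13 differed from each of the 6 at the unadjusted level and from Cd180 (ratio 1.17, adjusted interval 1.0015 to 1.36) and Tlr1 (1.17, 1.0004 to 1.38) at the adjusted level. Each of the 7 lower receptors differed from Unc93b1, Myd88 and Tlr6 in all 21 pairs unadjusted and in 20 adjusted, the exception being Tlr2 with Unc93b1. Tlr6 and Myd88 did not differ at the unadjusted level, with a ratio of 1.04 (0.896 to 1.22).

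Levels of different genes were compared per length, as reads per kilobase of the longest GENCODE M21 protein-coding transcript, scaled as CPM (RPKM). Unc93b1 led with 90.1 RPKM in the control and 85.2 in the knockdown library. In the control library Cd180 (29.6 RPKM), Myd88 (24.9), Tlr7 (23.2) and Tlr1 (19.6) followed. Tlr4 (12.7 RPKM, exact Poisson interval 12.2 to 13.2) and Tlr9 (12.3, 11.7 to 12.8) were not separated by counting error, nor were Tlr2 (7.82, 7.37 to 8.29) and Tlr13 (7.77, 7.38 to 8.17). Tlr6 was last with 2.17 RPKM. In the knockdown library Myd88 (26.6 RPKM) came before Cd180 (24.8), with overlapping intervals, and Tlr13 (5.56, 5.23 to 5.90) stood below Tlr2 (6.52, 6.11 to 6.96). By coding length Myd88 came before Cd180 in the control library too, at 55.0 and 39.6 RPKM. Within the receptor pool the largest shares changed little: Cd180 took 25.7% and 26.1% of the summed receptor RPKM and Tlr7 20.1% in both. The share of Tlr13 fell from 6.75% to 5.85%, and that of Tlr6 rose from 1.89% to 2.55%.

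Promoter sequences were also described, and their part in the folds was not tested. RefSeq promoter windows on GRCm38.p6, reaching from 250 bases before to 50 after the start, were at hand for 7 of the 10 genes, in 10 windows. Tlr4, Tlr7 and Unc93b1 had none. The motifs searched on both strands were GAGGAA and GGAAGT, letters found in sites of ETS factors such as PU.1, which share GGAA and can overlap, and an interferon response element motif of 2 TTTC blocks set 2 bases apart. GAGGAA was found in 3 of the 10 windows, of Tlr1, Tlr9 and Tlr13, and in 28.3% of all 32851 windows. GGAAGT was found in 8 of the 10, and in 23.8% of all. The Cd180 windows overlap and hold the same match, and by gene GGAAGT was found for 6 of 7, Cd180, Myd88, Tlr1, Tlr2, Tlr6 and Tlr9, against 26.5% of all genes. The interferon element motif was found in 2 of the 10, of Myd88 and Tlr6, and in 3.44% of all. The windows of the receptors with the lowest folds, Tlr13 (chrX:106143025-106143324, plus strand) and Tlr9 (chr9:106222348-106222647, plus strand), are shown beside that of Myd88 (chr9:119339969-119340268, minus strand), which was not lower, with GAGGAA and GGAAGT or their complements in capitals.
Tlr13: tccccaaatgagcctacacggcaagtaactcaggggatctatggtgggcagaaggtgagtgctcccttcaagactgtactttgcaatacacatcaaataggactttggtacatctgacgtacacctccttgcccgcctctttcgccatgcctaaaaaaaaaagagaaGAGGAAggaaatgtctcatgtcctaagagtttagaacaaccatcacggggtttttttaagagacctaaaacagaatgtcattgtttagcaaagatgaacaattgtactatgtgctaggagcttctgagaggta
Tlr9: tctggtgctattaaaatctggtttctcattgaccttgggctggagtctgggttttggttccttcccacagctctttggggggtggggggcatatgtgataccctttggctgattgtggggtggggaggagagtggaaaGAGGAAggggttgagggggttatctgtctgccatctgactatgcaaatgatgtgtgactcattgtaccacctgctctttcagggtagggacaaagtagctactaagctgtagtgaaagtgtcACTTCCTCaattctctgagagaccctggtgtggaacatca
Myd88: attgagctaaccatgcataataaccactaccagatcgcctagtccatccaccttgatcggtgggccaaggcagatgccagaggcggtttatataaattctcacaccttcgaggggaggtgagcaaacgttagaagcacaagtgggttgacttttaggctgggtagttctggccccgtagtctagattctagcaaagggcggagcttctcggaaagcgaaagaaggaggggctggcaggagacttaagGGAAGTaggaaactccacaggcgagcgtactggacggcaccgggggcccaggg
The Tlr9 window holds 2 matches of GAGGAA, 1 of them overlapping its GGAAGT, the Tlr13 window 1 match of GAGGAA alone, and the Myd88 window 1 match of GGAAGT. The matches are letters in these windows and not measured binding.

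Of the TLR genes outside the 10, Tlr8, Tlr12 and Tlr3 were measured, and all 3 stood lower in the knockdown library. Tlr8, an endosomal receptor beside Tlr7, had 417 and 208 reads and a fold of 0.511 (0.431 to 0.605). Tlr12, a receptor for profilin of protozoa, stood at 0.694 (0.569 to 0.844) with 257 and 174 reads, and Tlr3, the receptor for double-stranded RNA, at 0.821 (0.731 to 0.921) with 663 and 531. Tlr8 was the 1 of these past 1.5-fold, and it lay further from 1 than any of the 10. Tlr5 and Tlr11 were looked for, but the table held no gene of these symbols. The table lists only genes with at least 100 control reads, so genes higher from a low start would be missed.

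The partner proteins were mixed. Counts of intervals in the lists stand beside 22.7% of all genes below 1 and 24.2% above. Of 5 measured genes that present ligands or complete receptors, 3 intervals lay below 1 and 2 above, with a median log2 fold of -0.13. Cd36, a scavenger receptor that hands lipids to Tlr2, stood at 0.570 (0.538 to 0.604) with 3304 and 1839 reads, and Lbp, the lipopolysaccharide-binding protein, named after its value was seen, at 1.501 (1.18 to 1.92) with 114 and 167. Of 12 genes of receptor folding, trafficking and endosomal handling, 6 intervals lay below 1 and 1 above, with a median of -0.06. The general chaperones of TLR folding were near level, with Hsp90b1 at 0.958 (0.947 to 0.970) and its co-chaperone Cnpy3 at 0.965 (0.918 to 1.015), and Lrrc59, which aids exit of nucleic acid sensors, stood at 1.13 (1.099 to 1.16). Ctss, the endosomal protease cathepsin S, stood at 0.781 (0.764 to 0.799). The histidine and peptide transporter Slc15a4, needed for Tlr7 and Tlr9 signalling, was at 0.970 (0.927 to 1.02), while its relative Slc15a3, named after its value was seen, was at 0.663 (0.610 to 0.719), the 1 gene of this list past 1.5-fold.

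Signalling genes below the receptors had small median log2 folds, with more intervals below 1 than above. Over all genes, 22.7% of intervals lay below 1 and 24.2% above. Whether these genes differ from the receptors as a list was not tested. Of 6 adaptors other than Myd88, 3 intervals lay below 1 and 0 above, with a median log2 fold of -0.09. Tirap, which bridges Tlr2 and Tlr4 to Myd88, stood at 0.917 (0.852 to 0.988), Ticam1, the adaptor of Tlr3 and Tlr4, at 0.894 (0.820 to 0.976) and its bridge Ticam2 at 1.08 (0.927 to 1.26). Pik3ap1, a phosphoinositide kinase adaptor abundant in B cells, stood at 0.864 (0.832 to 0.897). Of 26 kinases, ubiquitin enzymes and transcription factors, 10 intervals lay below 1 and 5 above, with a median of -0.04 and a range from -0.21 to 0.17. Irak4, the first kinase of the Myd88 complex, stood at 0.880 (0.811 to 0.955), Irak1, its substrate, at 1.07 (1.03 to 1.11) and the ubiquitin ligase Traf6 at 0.957 (0.911 to 1.004). The most read members were Tab2 at 0.971 (0.947 to 0.996), Irf7 at 0.972 (0.951 to 0.992) and Nfkb1 at 0.951 (0.923 to 0.979). None of these 32 genes was past 1.5-fold.

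Of 12 inhibitors of TLR signalling, 2 intervals lay below 1 and 1 above, with a median log2 fold of -0.03. Among all genes the shares were 22.7% and 24.2%. Irak3, a kinase-dead brake that is typical of macrophages, was the lowest at 0.784 (0.721 to 0.852) with 1304 and 998 reads. Tollip stood at 1.05 (1.01 to 1.09), the ubiquitin-editing enzyme Tnfaip3 at 0.967 (0.904 to 1.03), and the most read, Ptpn6, Cyld and Rnf216, at 0.973 (0.9501 to 0.997), 0.970 (0.933 to 1.01) and 1.01 (0.968 to 1.05). Of the 6 receptors of the IL-1 family, which also signal through Myd88, 3 intervals lay below 1 and 0 above, with a median of -0.11. Il1rap was at 1.05 (0.955 to 1.16), Il18r1 at 0.873 (0.765 to 0.996) and Il1r1 at 0.990 (0.864 to 1.13).

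Of 29 cytokine and response genes that TLR ligands are known to induce, 23 were measured, with 6 intervals below 1, 6 above and a median log2 fold of 0.09. Their range, from -0.59 to 0.60, was wider than that of the signalling genes. The most read were the suppressor Socs3 at 0.931 (0.896 to 0.968), the monocyte chemokine Ccl2 at 0.665 (0.634 to 0.698) and the interferon-induced Ifit1 at 1.06 (1.01 to 1.11). Ccl2 was the 1 gene past 1.5-fold lower, and the 2 past 1.5-fold higher, named after their values were seen, were Lcn2, the siderophore-binding lipocalin, at 1.51 (1.42 to 1.61) and Cxcl10, an interferon-induced chemokine, at 1.501 (1.32 to 1.702). By intervals, the list was split evenly between the directions, near the shares of all genes, 22.7% below 1 and 24.2% above.

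**Figure D3:**
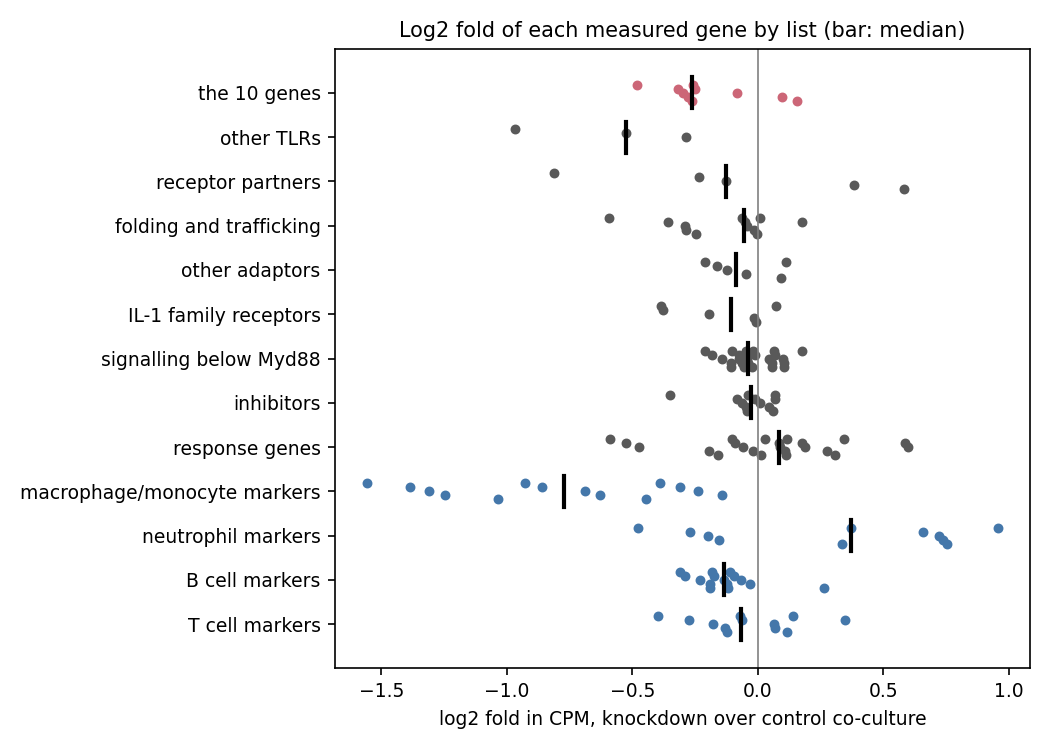
Log2 fold of each measured gene, knockdown over control library, by list, with a dot for each gene and a bar for each list's median. The 10 genes have a median of -0.26, signalling genes below Myd88 cluster between -0.21 and 0.17, and macrophage and monocyte markers reach from -1.56 to -0.14.

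Markers of 2 cell types that carry these receptors also stood lower in the knockdown library. Other lists, given further below, summed to folds of 1.35 for neutrophils, 1.01 for plasmacytoid and 0.887 for conventional dendritic cells. Erythroid and platelet markers summed to 0.895, so a sum at the B cell level was not particular to these 2 cell types. Over all genes, 22.7% of intervals lay below 1 and 24.2% above. Of 20 macrophage and monocyte markers 14 were measured, 13 with intervals below 1 and 0 above, and their folds reached from 0.338 to 0.906. Summed, they stood at 1447 and 1028 CPM, control first, a fold of 0.711 (0.702 to 0.719), with lysozyme Lyz2 at 0.735 (0.725 to 0.746) and perforin-2 gene Mpeg1 at 0.764 (0.743 to 0.786). Lyz2 gave 41921 of the 69328 control reads of that sum, and without it the fold was 0.673. Most markers stood lower than the sum, with a median log2 fold of -0.77 and 9 of the 14 past 1.5-fold lower. Of 15 B cell markers, 13 intervals lay below 1 and 1 above, and the sum went from 3594 to 3212 CPM, a fold of 0.894 (0.888 to 0.900), with the B cell receptor chain Cd79a at 0.926 (0.910 to 0.942) and the lectin Cd22 at 0.877 (0.860 to 0.895). The 7 lower receptors lay between the macrophage and B cell sums or at one of them. The fold of Tlr13 over that of the macrophage sum was 1.01 (0.929 to 1.09), and the other 9 genes stood higher than that sum, from Tlr9 at 1.13 (1.06 to 1.21) to Tlr6 at 1.57 (1.36 to 1.81). With Lyz2 left out of the sum, Tlr13 was at 1.06 (0.980 to 1.15). Over the B cell sum, Tlr13 was at 0.800 (0.739 to 0.867), Tlr9 at 0.899 (0.841 to 0.960), Tlr4 at 0.909 (0.856 to 0.966), Tlr7 at 0.923 (0.882 to 0.966), Cd180 at 0.935 (0.891 to 0.981) and Tlr1 at 0.940 (0.889 to 0.994). Tlr2, at 0.933 (0.854 to 1.02), was not separated from the B cell sum, and Unc93b1 (1.06), Myd88 (1.20) and Tlr6 (1.25) stood above it. The marker lists too were chosen with earlier results of these data known. The part of these cells in the receptors' values was not tested.

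**Figure D4:**
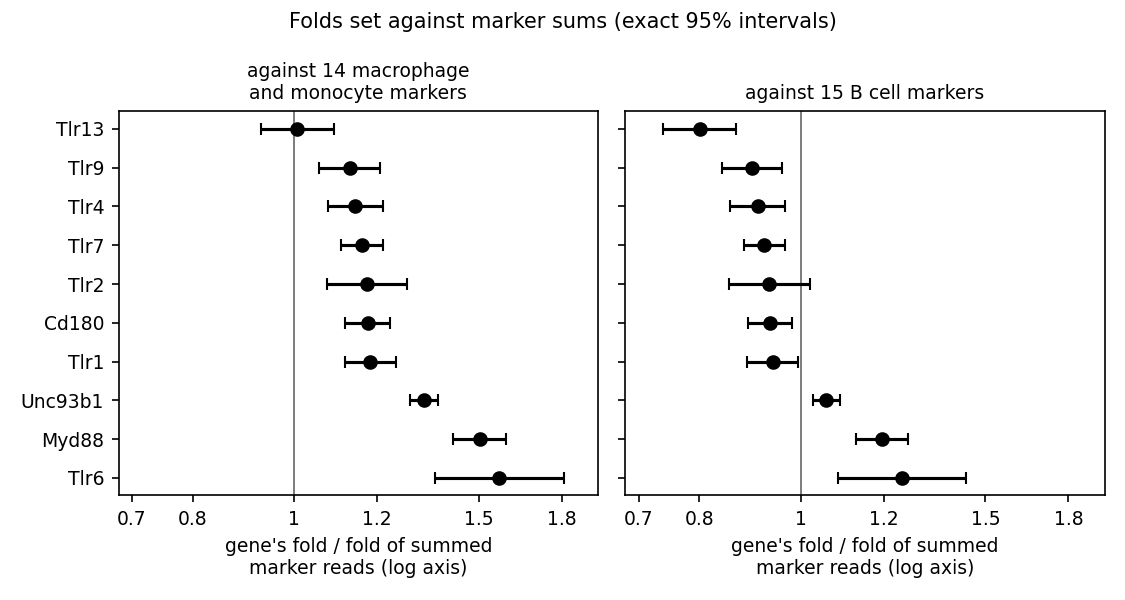
Fold of each gene divided by the fold of the summed marker reads (log axis), for 14 macrophage and monocyte markers on the left and 15 B cell markers on the right, with exact 95% intervals from counting error. Tlr13 lies at 1.01 on the left and at 0.800 on the right, and on the left the whole interval lies above 1 for the other 9 genes.

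Across the table, folds also went with transcript length, from a median log2 fold of 0.10 in the shortest 10% of the 13210 genes with a length to -0.11 in the longest 10%. The transcripts of the 10 genes were of middle length, from 1960 bases (Myd88) to 4077 (Tlr4), and the medians of the length groups they fall in lay between -0.00 and 0.06. With those medians subtracted, the 10 genes had a median of -0.28, beside -0.26 without.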

How the data were processed

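The 2 libraries came from total RNA of splenic CD4+CD25+ cells after co-culture, per the labels. The submitters' processing notes list Trimmomatic 0.39 and BWA 0.7.17, and as builds both GRCm39 and mm8, with no role for either. The counting tool and its use of strand are not given in the sources used here. BWA does not model exon junctions, so with a genome as reference, reads across them can be clipped, split or lost. The authors deposited counts of mapped reads per gene, not normalized, and, per the file headers, counts scaled to equal totals and by TMM, which are of the unit signal. An unnamed deposited column of log2 ratios equals the log2 ratio of the total-scaled values to within 0.005.

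The row of library totals was left out, and 0.782% and 0.764% of the deposited totals, control first, lay in no listed gene. Library sizes used TMM factors from edgeR 4.0.16 under R 4.3.3, with 1.004 and 0.996. No count model was fitted, because 1 library per group gives no dispersion. Further steps used Python 3.11.15, scipy 1.17.1, pandas 2.3.3, matplotlib 3.10.9 and numpy 2.4.6. All genes had at least 1 CPM in a library and 10 reads in both together. Log2 folds used a prior count of 0.5. Ratios of folds are conditional odds ratios of reads with exact intervals. The intervals of folds, but not those of ratios of folds, were run on simulated Poisson counts. Such counts follow the model that the intervals assume, so the run checks the code and not the error between cultures. Identity of Tlr1 and Tlr6 was computed from coding sequences in place of proteins. The rule for named genes took the 10 genes, a fixed set of partners and signalling genes, the 3 most read genes of each pathway list and the 2 most read of each marker list. The 10 genes and the lists were chosen with earlier results of these data known. Alternatives were other scalings, filters, fold thresholds, prior counts and lengths.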

Additional observations from a re-analysis of the deposited data

How the results depend on the processing

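The folds of the 10 genes kept their direction under total-read, DESeq2 1.42.0, upper-quartile and both of the authors' scalings, and each stayed within its own 95% interval, with Tlr13 between 0.709 and 0.719 and Myd88 between 1.06 and 1.07. Their median log2 fold ran from -0.27 to -0.25 over scalings and was -0.20 as a mean and -0.28 with length groups subtracted, a setting chosen after the data were seen. The 8 intervals below 1 remained 8 under every scaling, and the 1 above 1, of Myd88, became 0 under upper-quartile scaling, which moved its lower bound to 0.9995. None of the 10 passed a fold of 1.5, 2 or 3. Over all genes, 20 lower and 1 higher at 2-fold became 180 and 43 at 1.5-fold, 0 and 0 at 3-fold, and 10 lower under a minimum of 5 CPM. The median of the ligand and co-receptor partners moved from -0.13 to -0.04 as a mean and to -0.24 with at least 5 CPM, that of trafficking genes from -0.06 to -0.15 as a mean, and that of IL-1 family receptors from -0.11 to -0.01 with at least 5 CPM. Without Cd79a, the B cell marker with the most reads, 5 in place of 6 genes stood below the B cell sum, Tlr1 being the one lost. Depth limits Tlr6 most, whose 383 and 417 reads leave an interval from 0.969 to 1.285.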

Other observations

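Among the other marker lists, the neutrophil sum stood higher in the knockdown library. Counts of intervals here and in the lists that follow stand beside 22.7% of all genes below 1 and 24.2% above. Of 11 measured neutrophil markers, 7 intervals lay above 1 and 4 below, and the summed level went from 430 to 582 CPM, a fold of 1.35 (95% interval 1.33 to 1.38). Its most read genes were S100a9, an alarmin, at 1.29 (1.24 to 1.35) and Mpo, the peroxidase of primary granules, at 1.69 (1.62 to 1.76). Plasmacytoid dendritic cells carry Tlr7 and Tlr9, and 2 intervals of their 7 measured markers lay below 1 and 2 above, with a median log2 fold of -0.10. The sum stood at 1.01 (0.995 to 1.03), with Bst2, the marker with the most reads (9657 of 22795 in the control library), at 1.13 (1.101 to 1.16) and Ly6d at 0.932 (0.898 to 0.967), both also expressed by B cells. Siglech, their defining lectin and named after its value was seen, had 180 and 145 reads, a fold of 0.825 (0.659 to 1.03). The 4 measured markers of conventional dendritic cells summed to 0.887 (0.822 to 0.957), with Zbtb46 at 0.927 (0.832 to 1.03) and Xcr1 at 0.889 (0.746 to 1.06). Itgax, named after its value was seen, stood at 0.684 (0.562 to 0.832) and was the 1 gene of that list with an interval below 1.

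The 12 T cell markers summed to a fold of 0.984 (0.963 to 1.01), with 5 intervals below 1 and 3 above. Lck stood at 1.048 (1.0001 to 1.098), Cd8a at 0.884 (0.839 to 0.932) and Cd4 at 0.759 (0.650 to 0.886). The 9 measured Treg markers summed to 0.975 (0.916 to 1.04), with Ikzf2 at 0.859 (0.738 to 1.0003) and Tnfrsf18 at 0.986 (0.846 to 1.15). The 4 measured endothelial markers summed to 0.973 (0.935 to 1.01), with Pecam1 at 0.9497 (0.908 to 0.993) and Vwf at 1.16 (1.03 to 1.31). The 10 matrix markers summed to 2803 and 2684 CPM, control first, a fold of 0.958 (0.9504 to 0.965). Col5a2 stood at 0.925 (0.913 to 0.937) and Fn1 at 0.892 (0.877 to 0.907). The 5 measured erythroid and platelet markers summed to 0.895 (0.886 to 0.904), with 4 intervals below 1 and 0 above. Most of that sum was globin reads, with Hbb-bs at 0.886 (0.873 to 0.898) and Hba-a1, whose reads can be split with a near-identical copy, at 0.920 (0.906 to 0.934). The platelet chemokine Pf4, named after its value was seen, had 1117 and 455 reads and a fold of 0.417 (0.373 to 0.466), past the 2-fold rule, and the heme synthesis enzyme Alas2, likewise, stood at 0.756 (0.674 to 0.847).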
